A study of Mus musculus with 2 samples.

Results

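Connexins are the membrane proteins of gap junctions. Connexin subunits form a hemichannel in one cell, which docks with a hemichannel of a neighbouring cell so that ions and small molecules pass directly between their interiors. Which connexins a cell makes decides which neighbours it can couple to, and in the kidney different members are known from vessel walls, renin-producing cells, stromal mesenchyme and tubular epithelium. The 8 connexin genes described here were Gja4 (Cx37) and Gja5 (Cx40) of arterial endothelium, Gjc1 (Cx45) of vascular smooth muscle and renin cells, Gja1 (Cx43) of mesenchyme, Gjb1 (Cx32), Gjb2 (Cx26) and Gjb6 (Cx30) of epithelia, and Gja3 (Cx46), best known from the lens. They were taken by Ensembl identifier from the gene tables of both libraries, where they are 8 of 43346 mouse genes, and their roles come from general knowledge of the family, not from these data.

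RNA was sequenced from whole kidneys of healthy B6NCrl mouse embryos at 16.5 days of development. The libraries form 1 group of 2 biological replicates, both of them pools of male and female embryos under the same donor label, with no treatment, allele or second tissue. Replicate 2 pooled 41 embryos, and the labels used here state no pool size for replicate 1. RNA longer than 200 nt was used, with 10 ng entering each library. Estimated counts on mouse genes summed to 34261328 in replicate 1 and 37900132 in replicate 2. Levels are given in TPM, the deposited measure scaled to transcript length, so that genes can be compared with each other. Values follow as mean ± SD (n = 2), and the smallest two-sided exact p that 2 libraries can give is 0.5, so no level was tested. Nothing in the labels says whether the spread between the pools is biological or technical. In whole tissue, fewer cells of a type and less RNA per cell cannot be told apart, and a level does not show which cells held the RNA.

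The members share the docking part of the protein. The first extracellular loop of connexins carries cysteines that hold its fold, and a stretch coding for such cysteines was found once in the reading frame of every member. These 36-base coding stretches are shown because they are what the family has in common across vessels and epithelium. They were read from the GENCODE M21 transcripts (GRCm38), 5′ to 3′, with the cysteine codons in capitals.
Gja1: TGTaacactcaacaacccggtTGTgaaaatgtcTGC
Gja3: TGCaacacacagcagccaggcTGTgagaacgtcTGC
Gja4: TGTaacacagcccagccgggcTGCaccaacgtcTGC
Gja5: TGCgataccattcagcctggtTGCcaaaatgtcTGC
Gjb1: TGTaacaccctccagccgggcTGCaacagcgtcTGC
Gjb2: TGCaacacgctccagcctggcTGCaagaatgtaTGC
Gjb6: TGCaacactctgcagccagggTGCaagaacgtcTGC
Gjc1: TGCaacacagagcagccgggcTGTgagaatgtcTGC

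The stretch encodes residues 54 to 65 in Gja1, Gja3, Gja4 and Gja5, and residues 53 to 64 in Gjb1, Gjb2, Gjb6 and Gjc1. Between members, 23 (Gja4 and Gja5) to 33 (Gja3 and Gjc1) of the 36 bases were identical. The endothelial pair therefore had the fewest identical bases of all pairs in this stretch. Over the whole translated reading frames, Gjb2 and Gjb6 shared 76.5% of aligned residues, Gjb1 and Gjb2 63.6%, Gja4 and Gja5 46.9%, and Gja5 and Gjc1 37.2%, the lowest of all pairs. Encoded lengths ran from 226 residues in Gjb2 to 417 in Gja3. The GENCODE M21 sequences of the deposited transcripts were searched for shared stretches. For Gja1 and Gja3 these differ in length from the deposited models (3071 against 3105 nt, and 2766 against 1548 nt). Despite their relatedness, no stretch of 50 nt was shared between any of the members. The only stretches of that length shared on either strand with a GENCODE M21 transcript of another gene were 2 in Gjc1, found also in Herc6.

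The members stood in one order of level, from the mesenchymal Gja1 down to the epithelial Gjb2, and Gjb6 was near the limit of detection. A gene was called detected at 1 TPM or more in both libraries. By this rule 7 of the 8 members were detected, beside 34.7% of all mouse genes and 62.2% of protein-coding genes. The order of the 8 genes was Gja1, Gjc1, Gjb1, Gja4, Gja5, Gja3, Gjb2 and Gjb6 in both libraries, and no neighbours overlapped in their 2 values. The deposited credibility bounds separated fewer of them: those of Gjb1 and Gja4 overlapped in replicate 1 and those of Gja4 and Gja5 in replicate 2. The plot of levels by library shows Gjb1, Gja4 and Gja5 close together, below Gja1 and Gjc1 and above Gja3, Gjb2 and Gjb6.

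**Figure D1:**
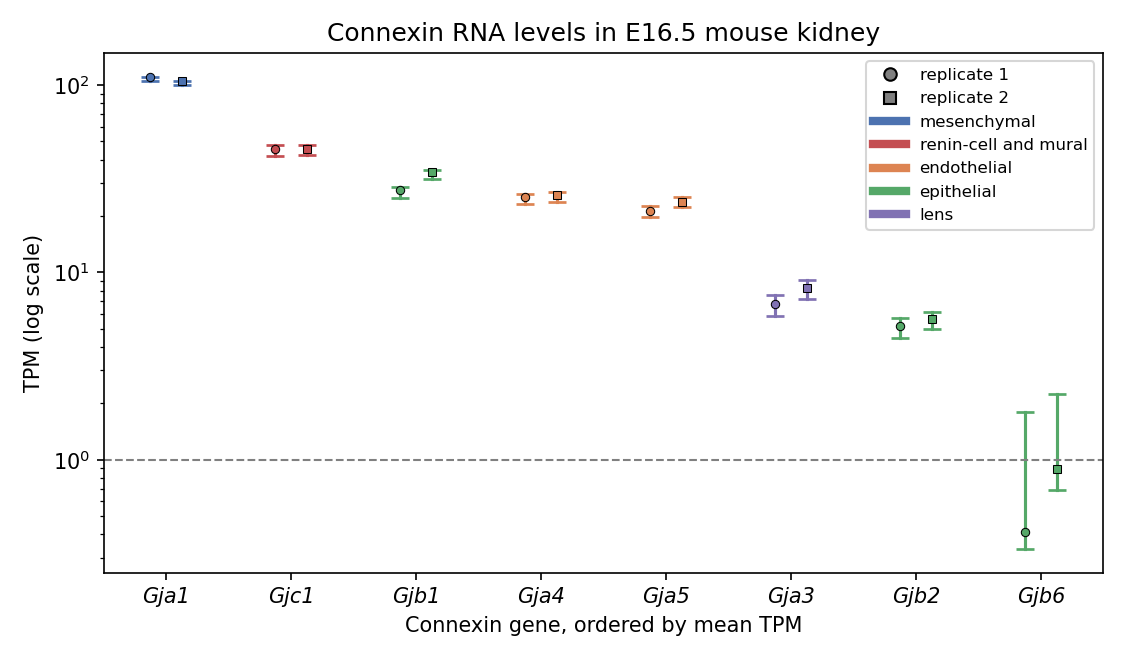
TPM (log axis) of the 8 connexin genes in replicate 1 (circles) and replicate 2 (squares), with vertical bars for the deposited lower and upper bounds, colours for the role and a dashed line at 1 TPM. Gja1 lies above 100 TPM in both libraries, Gjb1, Gja4 and Gja5 lie close together between 21.4 and 34.1 TPM, and Gjb6 lies below the line with bounds that cross it.

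Gja1 carried the largest part of the connexin RNA. It forms gap junctions in mesenchyme, smooth muscle and heart. Its level was 111 TPM in replicate 1 (7652 counts) and 105 TPM in replicate 2 (7855 counts), a mean of 108 ± 4.29. It stood above 88.4% of the detected protein-coding genes. Gja1 made up 45.7% and 42.0% of the summed TPM of the 8 members. The deposited TPM lay just above its own upper bound in both libraries (110.87 against 110.58, and 104.81 against 104.70), and the deposited posterior means were 108 and 102. The stromal marker list was present throughout, with 7 of 7 genes detected and a summed level of 1594 and 1739 TPM. Its highest genes were the collagen gene Col1a1 (751 TPM on average), Tcf21 (301), a transcription factor of renal stroma, and Aldh1a2 (274), which makes retinoic acid. Of the heart muscle list, 2 of 4 genes were detected, led by Tnnt2 (7.70 and 31.3 TPM) and Myl7 (7.45 and 4.25 TPM), while Nppa stayed at 0.340 and 0.840 TPM, and the part of such cells in the Gja1 level was not tested. Gja1 lies on chromosome 10 at chr10:56377330-56402513 on the plus strand and had 1 deposited transcript.

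Gjc1, the connexin of vascular smooth muscle and renin cells, was the second highest member, with TPM values that nearly coincided in the 2 libraries. It reached 45.4 TPM in replicate 1 (1762 counts) and 45.8 TPM in replicate 2 (1964 counts), a mean of 45.6 ± 0.290. These values differed less between the pools than the deposited bounds within either library (41.6 to 47.6, and 42.3 to 47.7). They add up transcripts that moved in both directions. The leading transcript Gjc1-201 stood at 34.2 and 34.4 TPM and Gjc1-202 at 3.24 and 5.11. The short non-coding Gjc1-204 gave 4.72 TPM on 16.0 counts and 3.41 TPM on 12.6 counts. Gja1 was 2.44 and 2.29 times as high as Gjc1. The 9 renin and mural markers were all detected, with summed levels of 874 and 1340 TPM. The smooth muscle actin Acta2 stood at 305 and 564 TPM and the renin gene Ren1 at 338 and 411. Akr1b7, an enzyme listed here for renin-lineage cells, stood at 71.7 and 113 TPM. All 4 adrenal cortex genes were detected as well (summed level 63.8 and 94.4 TPM). The part of adrenal RNA in the Akr1b7 level was not tested. Gjc1 lies at chr11:102799579-102819700 on the minus strand.

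The endothelial members Gja4 and Gja5 were present at nearly equal levels. Both build the gap junctions along which signals travel in arterial endothelium, and Gja5 is also known from renin cells and from atrial muscle. Gja4 stood at 25.3 TPM in replicate 1 (922 counts) and 26.0 TPM in replicate 2 (1026 counts), a mean of 25.6 ± 0.445. Gja5 stood at 21.4 TPM (1437 counts) and 23.9 TPM (1746 counts), a mean of 22.6 ± 1.79. Gja4 was thus 1.19 and 1.09 times as high as Gja5, although Gja5, with a mean deposited length of 3030 nt in replicate 1 against 1685 nt for Gja4, drew more counts in both libraries. Among the markers, all 6 pan-endothelial genes were detected (summed level 228 and 233 TPM), led by Pecam1 (62.3 on average), Tie1 (54.6) and Kdr (37.3). Of the 6 arterial genes 5 were detected (summed level 104 and 119 TPM), led by Hey1 (43.6), Sox17 (29.6) and Efnb2 (18.0). Of the 4 lymphatic genes 3 were detected (56.3 and 54.6 TPM), led by Pdpn (39.7), which podocytes also express, Flt4 (8.82) and Lyve1 (6.05), and Prox1, the factor that defines lymphatic endothelium, stood at 1.02 and 0.740 TPM (chosen after its values were seen). The mean levels of Gja4 and Gja5 lay between those of Sox17 and Efnb2.

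Gja4 lies at chr4:127311421-127314039 on the minus strand and had 1 deposited transcript. Gja5 lies at chr3:96904693-97077416 on the plus strand in GENCODE M21, but the 2 deposited transcripts both start at base 97032416. The span of an antisense gene, 4930573H18Rik, overlaps theirs on the other strand. This gene was not among those quantified, and overlap of exons was not checked. No label or header used here says whether reads were counted by strand. Reads from any bases that the pair shares could therefore not be told apart, and the Gja5 level is uncertain in that respect.

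The epithelial members were dominated by Gjb1. Gjb1 forms gap junctions in hepatocytes, Schwann cells and proximal tubules. It reached 27.5 TPM in replicate 1 (907 counts) and 34.1 TPM in replicate 2 (1223 counts), a mean of 30.8 ± 4.70. The deposited bounds of the 2 libraries did not overlap (25.1 to 28.6, and 31.5 to 35.2). Gjb2, which is widespread in epithelia of the ear, skin and liver, stood at 5.19 TPM (275 counts) and 5.67 TPM (326 counts), a mean of 5.43 ± 0.339. Gjb1 was 5.30 and 6.02 times as high as Gjb2. Gjb6, the partner of Gjb2 in the inner ear, had 19 counts (0.410 TPM, bounds 0.334 to 1.81) and 38 counts (0.890 TPM, bounds 0.693 to 2.25). It was the only member below 1 TPM, and because its bounds as a gene cross 1 TPM in both libraries they did not settle its side of that line. The bounds of its coding transcript Gjb6-201 lay below 1 TPM (0.224 to 0.591, and 0.392 to 0.919). Those of the short non-coding Gjb6-203, with 0 counts in both libraries, reached 1.24 and 1.14 TPM.

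Markers of several tissues that use these epithelial connexins were present beside them. All 6 proximal tubule genes were detected, with a summed level of 360 and 414 TPM, led by the phosphate transporter Slc34a1 (229 on average), Slc27a2 (62.8) and the water channel Aqp1 (50.2). All 7 genes of the ureteric bud and collecting duct were detected (781 and 837 TPM), led by Krt8 (248), Krt18 (187) and Calb1 (135). Of the 5 urothelial genes 4 were detected (68.0 and 92.0 TPM), led by Upk3a (57.9), Upk1b (14.8) and Upk2 (5.82). The 4 liver genes were also all detected (141 and 173 TPM), with Afp at 96.7 and 114 TPM, Apoa2 at 18.3 and 26.9 and Alb at 12.7 and 17.3. Of the epidermal list 1 of 4 passed (7.79 and 7.95 TPM), namely Krt10 (5.39 on average), with Krt14 at 0.780 and 1.44 TPM and Ivl at 0.530 and 1.14. The part of liver or skin RNA in the levels of Gjb1, Gjb2 and Gjb6 was not tested.

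Gja3 was detected without the markers of the organ it is known from. It stood at 6.82 TPM in replicate 1 (227 counts) and 8.28 TPM in replicate 2 (299 counts), a mean of 7.55 ± 1.03, and so above Gjb2 by 1.31 and 1.46 times. None of the 5 lens genes was detected, and their summed level was 1.41 and 2.02 TPM. Most of that came from the filament gene Bfsp1 (0.930 and 1.54 TPM), followed by Bfsp2 (0.450 and 0.480) and Cryba1 (0.030 and 0). The lens genes Crygd and Mip had 0 counts in both libraries, and a floor of 3 counts per library allows up to 0.307 and 0.283 TPM for Crygd and up to 0.0639 and 0.0588 TPM for Mip, counting error only. The deposited upper bounds were 0.773 and 0.713 TPM for Crygd and 0.0647 and 0.0569 TPM for Mip. The deposited Gja3 transcript was 1548 nt long, whereas the same transcript spans 2766 nt in GENCODE M21, and its TPM refers to the shorter model. Gja3 (chr14:57034460-57058100), Gjb2 (chr14:57098600-57104702) and Gjb6 (chr14:57123303-57133611) lie next to each other on the minus strand, with gaps of 40499 and 18600 nt. Their levels ran from high to low in that order, and Gjb2 was 12.7 and 6.37 times as high as Gjb6.

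Summed by role, Gja1, the only member counted as mesenchymal, exceeded the endothelial pair. The endothelial, renin-cell and epithelial sums lay closer together. Gja1 alone gave 111 and 105 TPM, the endothelial pair 46.7 and 49.8, Gjc1 45.4 and 45.8, the 3 epithelial members 33.1 and 40.7, and Gja3 6.82 and 8.28. The mesenchymal over endothelial ratio was 2.38-fold in replicate 1 and 2.10-fold in replicate 2 (log2 1.16 ± 0.12). Gja1 was counted as mesenchymal throughout, although it is also known from smooth muscle and heart. The mesenchymal over endothelial ratio rests on that choice, and Gja5 was the only member that an alternative moved to another role. The endothelial over epithelial ratio was 1.41-fold and 1.22-fold (log2 0.39 ± 0.14). Gjc1, with its non-coding transcripts included, was 0.972 and 0.919 times the endothelial sum (log2 -0.08 ± 0.06), the closest of the 3 comparisons to equality. The last 2 rest on where Gja5 is counted: with Gja5 moved to the renin-cell and mural side, the endothelial over epithelial value turned to -0.52 and the renin-cell and mural over endothelial value to 1.41, while the mesenchymal over endothelial value became 2.07. Without scaling to length, the 3 log2 values were 0.89 for endothelial over epithelial, 1.60 for mesenchymal over endothelial and -0.46 for Gjc1 over endothelial.

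**Figure D2:**
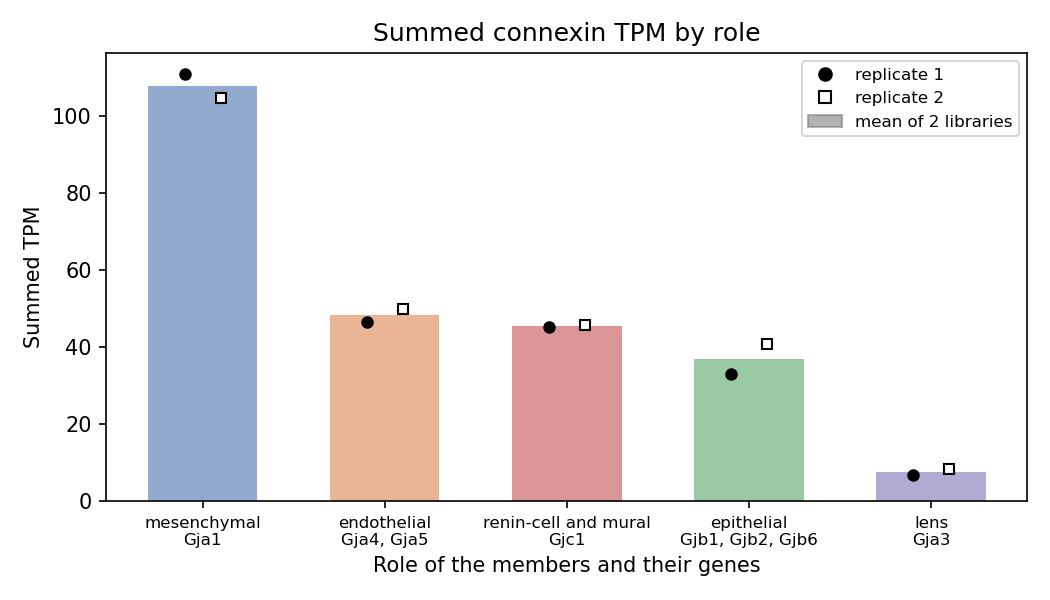
Summed TPM of the members by role, with bars for the mean of 2 libraries and points for replicate 1 (filled circles) and replicate 2 (open squares). The mesenchymal bar (Gja1) stands at 108 TPM, and the endothelial, renin-cell and mural, and epithelial bars stand at 48.3, 45.6 and 36.9 TPM.

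The 8 members held nearly all connexin RNA in these libraries. Over the 20 connexin genes listed, summed TPM was 247 in replicate 1 and 254 in replicate 2, and the members made up 98.4% and 98.1% of it. Of the 12 other connexins 2 were detected, among them Gjb5, known from skin and placenta, at 1.26 and 1.48 TPM, and the other 10 were below 1 TPM in at least 1 library. Among the pannexins, which form related channels in a single membrane, Panx1 stood at 21.01 and 20.65 TPM, close to the level of Gja5, and Panx2 and Panx3 were not detected. Of 11 genes known to bind, anchor or turn over connexins 10 were detected. The highest were the ubiquitin ligase Nedd4 (560 and 547 TPM), the actin-binding protein Dbn1 (159 and 149) and the caveolar protein Cav1 (71.9 and 106), and the lowest was Ccn3, a matrix protein that binds the Gja1 protein (0.990 and 0.930 TPM).

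Transcript use could be read for 4 of the members, since Gja1, Gja3, Gja4 and Gjb2 had 1 deposited transcript each. The other 4 genes had 13 transcripts together, and all 4 had the same leading transcript in both libraries by the deposited estimate. By the deposited posterior mean, an average over possible read assignments, 3 of the 4 did, and for 2 (Gja5 and Gjc1) both measures named the same lead in both libraries. Gja5-201 took 97.1% of Gja5 in each library. Gjc1-201 took 75.4% and 75.1% of Gjc1, with Gjc1-202, which differs in its first exon, at 7.15% and 11.2% and the short non-coding Gjc1-204 at 10.4% and 7.44%. For Gjb6, Gjb6-201 took 100% and 76.4% and Gjb6-202 took 0% and 23.6%, but at 19 and 38 counts the posterior mean gave the lead to Gjb6-203 in replicate 1 (45.1%).

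**Figure D3:**
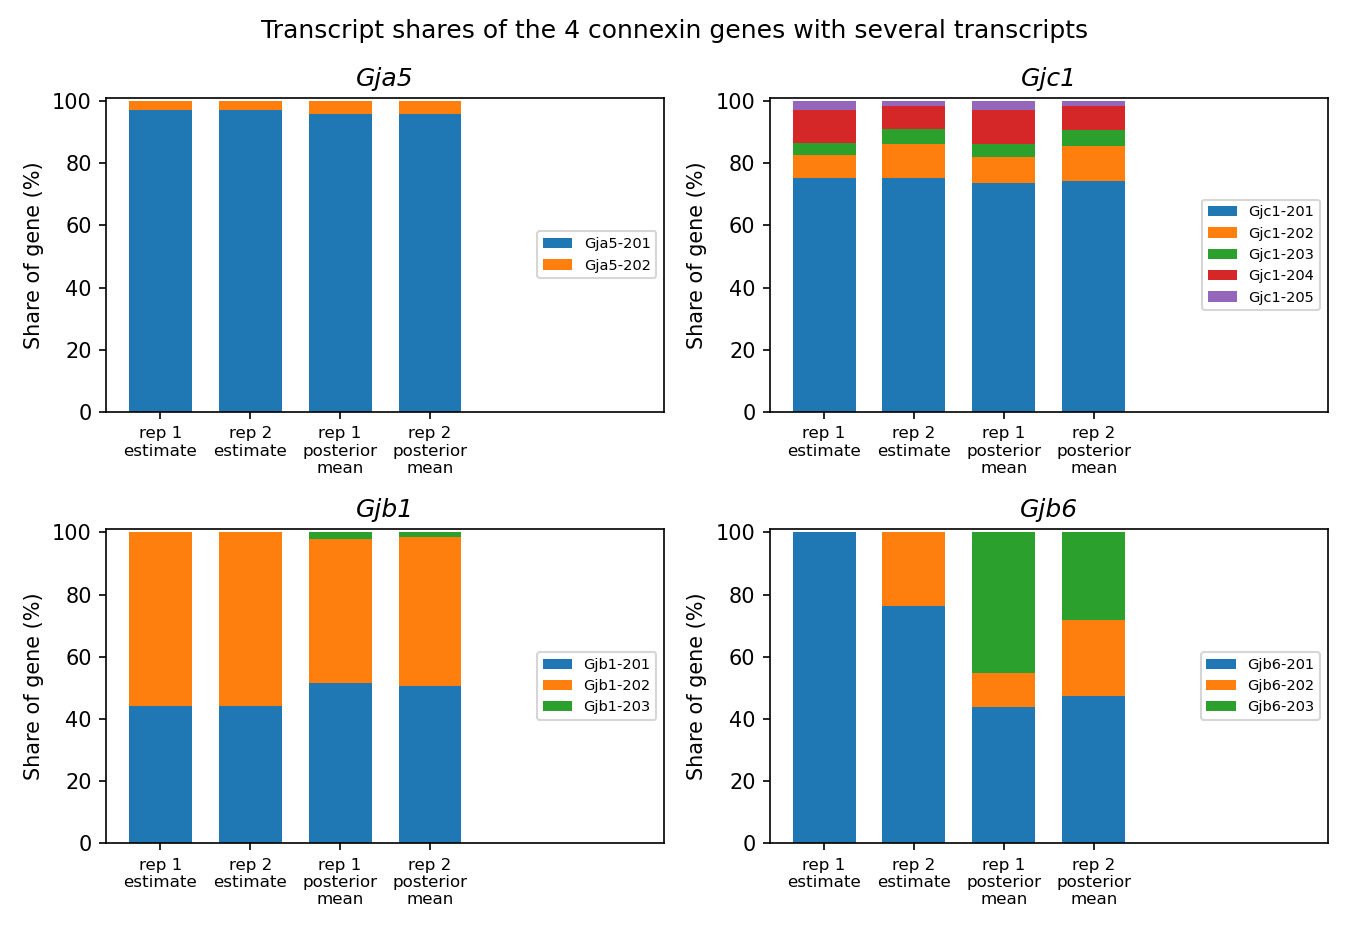
Share of each deposited transcript within Gja5, Gjc1, Gjb1 and Gjb6 (percent), for replicates 1 and 2 by the deposited estimate (left pair of bars) and by the deposited posterior mean (right pair). Gja5-201 fills 97.1% in both libraries by the estimate, whereas in Gjb1 the lead passes from Gjb1-202 to Gjb1-201 between the measures and in Gjb6 the measures give different shares.

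Gjb1 was split between start sites by the deposited estimate. Its 3 deposited transcripts share a second exon of 1478 nt and differ only in a short first exon, of 35 nt in Gjb1-202, 87 nt in Gjb1-201 and 107 nt in Gjb1-203. Gjb1-202, which starts at base 101376378 of chromosome X, took 55.9% in both libraries, and Gjb1-201, which starts at base 101377273, took 44.1%. The posterior mean reversed that order, with 51.5% and 50.5% for Gjb1-201 and 46.4% and 47.8% for Gjb1-202. The deposited bounds were wide and overlapped, from 4.07 to 19.1 TPM for Gjb1-202 and from 7.31 to 21.9 for Gjb1-201 in replicate 1, so neither could be called the main form. Gjb1-203, starting at base 101383736, had 0 estimated counts in both libraries and an upper bound of 1.52 and 1.51 TPM. The 100 bases before the RefSeq start nearest to each of these transcripts are printed because the estimate separates the first 2 starts from the third (RefSeq, GRCm38.p6, plus strand, 5′ to 3′, motif matches in capitals).
Gjb1-202 start, chrX:101376276-101376375: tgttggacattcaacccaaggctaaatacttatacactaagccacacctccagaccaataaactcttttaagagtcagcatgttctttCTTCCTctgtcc
Gjb1-201 start, chrX:101377135-101377234: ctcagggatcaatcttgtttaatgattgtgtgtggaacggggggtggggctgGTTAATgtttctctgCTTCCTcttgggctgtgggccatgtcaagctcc
Gjb1-203 start, chrX:101383632-101383731: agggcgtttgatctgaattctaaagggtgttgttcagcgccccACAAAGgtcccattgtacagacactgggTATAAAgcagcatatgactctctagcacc

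The RefSeq starts lie 2, 38 and 4 nt from the starts of Gjb1-202, Gjb1-201 and Gjb1-203. A set of 6 motifs was searched on both strands: the GC box GGGCGG, the TATA box TATAAA, the HNF1 half-site GTTAAT, the ETS core AGGAAG, the SOX core ACAAAG and the AP-1 site TGANTCA. The stretch before Gjb1-202 held an ETS match. That before Gjb1-201 held an HNF1 half-site and an ETS match, and that before Gjb1-203, the start with 0 counts, a TATA box and a SOX match. Over all 32851 RefSeq windows of 300 bases around starts, 7.10% held the HNF1 half-site, 35.4% the ETS core, 13.6% the TATA box and 18.7% the SOX core. These shares refer to windows longer than the printed stretches. In its own window of 300 bases, the Gjb1-202 start also held a SOX match. That of Gjb1-203 also held 3 GC boxes, a motif found in 35.7% of all windows. The matches describe letters in these windows only. Promoter windows were found for 7 of the 8 members, all but Gjc1.

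Levels of the 7 members compared differed between the 2 pools about as much as those of all genes. Several contractile smooth muscle markers stood further apart. The comparison used counts scaled with TMM, a scaling on the bulk of genes, and its intervals cover counting error only. Of the 7 members with enough counts to enter (a mean of at least 1 CPM), 0 differed by 1.5-fold or more between replicate 2 and replicate 1, beside 5.81% of 15363 genes, and 7 genes are too few to set that count apart from this background. The median absolute log2 ratio was 0.13 over these 7 members and 0.11 over all genes. The absolute ratios of the members ranged from above those of 17.2% of these genes (Gja4) to above those of 84.5% (Gjb1). The highest member ratio was that of Gjb1 at 1.24-fold (interval 1.14 to 1.35), followed by Gja3 at 1.21-fold (1.02 to 1.45) and Gja5 at 1.12-fold (1.04 to 1.20). Gja4 (1.02-fold, 0.937 to 1.12), Gjc1 (1.03-fold, 0.962 to 1.10) and Gjb2 (1.09-fold, 0.927 to 1.29) had intervals that include equality. Gja1 was lower in replicate 2, at 0.945-fold (0.916 to 0.976), but higher by log2 0.34 when scaled to the spike-in RNAs. Gjb6, left out by the count filter, was at 1.76-fold with an interval from 1.04 to 3.38. With 1 library per pool there is no test of these ratios.

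Scaling to the spike-ins raised the median log2 ratio of all genes from 0.01 to 0.43. Of all genes past 1.5-fold, 316 were higher and 577 lower in replicate 2 with TMM, against 2455 higher and 269 lower with spike-ins. Gjb1 (log2 0.73) and Gja3 (0.70) then passed 1.5-fold. Relative to that median of 0.43 they stood at 0.30 and 0.26, and Gja1 at -0.09.

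**Figure D4:**
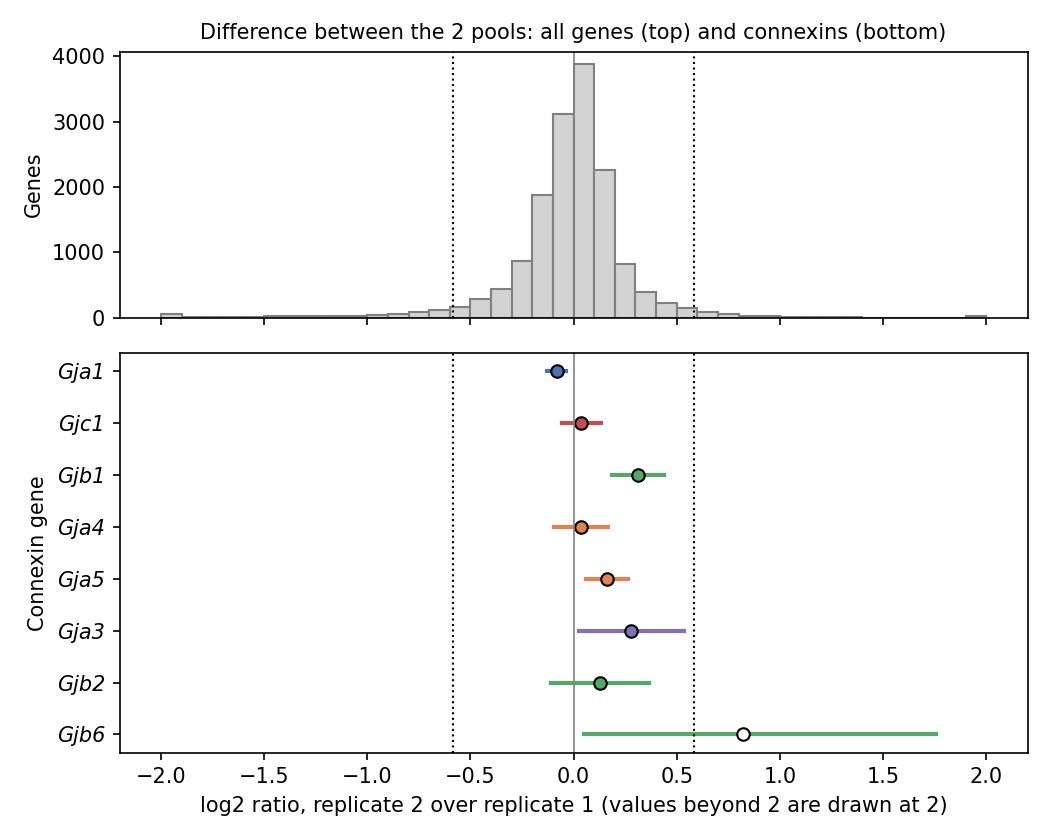
Distribution of the log2 ratio of replicate 2 over replicate 1 for 15363 genes (top, number of genes per bin) and the ratio of each connexin with its 95% counting interval (bottom; the open symbol is Gjb6, which did not pass the count filter; dotted lines mark 1.5-fold). The 7 filled symbols lie between the dotted lines.

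The marker lists beside the members differed in how far the pools stood apart. The renin and mural list had a median log2 ratio of 0.66 with 5 of 9 genes past 1.5-fold, namely Cnn1 (1.95), Myh11 (1.52), Tagln (0.95), Acta2 (0.89) and Akr1b7 (0.66), all higher in replicate 2. Myh11, Cnn1 and Tagln are contractile smooth muscle genes, and they, Pdgfrb and Notch3 were chosen here after their values were seen. In the same libraries Gjc1 stood at log2 0.04, Ren1 at 0.28, and the mural genes Pdgfrb and Notch3 at 0.00 and -0.06. The pan-endothelial list had a median of 0.04 and the arterial list of 0.12, with 0 genes past 1.5-fold in either, beside 0.04 for Gja4 and 0.16 for Gja5. The proximal tubule list had a median of 0.16 with 0 of 6 past 1.5-fold and the liver list 0.34 with 0 of 4, beside 0.31 for Gjb1. The adrenal cortex list had a median of 0.81 with 3 of 4 genes past 1.5-fold; of its highest genes by level, Cyp11a1 (0.83) and Star (0.80) were among them and Cyp21a1 (0.15) was not. The urothelial list had a median of 0.62 with 2 of the 4 genes that passed the count filter past 1.5-fold, Upk2 (1.17) and Upk1b (1.01), while Upk3a stood at 0.22. All 3 heart muscle genes that passed the filter were past 1.5-fold, but in both directions: Tnnt2 was higher in replicate 2 (1.99), and Myl7 (-0.79) and Myh6 (-1.43, named after its value was seen) were lower, beside -0.08 for Gja1 and 0.16 for Gja5. The part of any of these lists in the member ratios, or of adrenal RNA in the ratio of Akr1b7, was not tested.

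**Figure D5:**
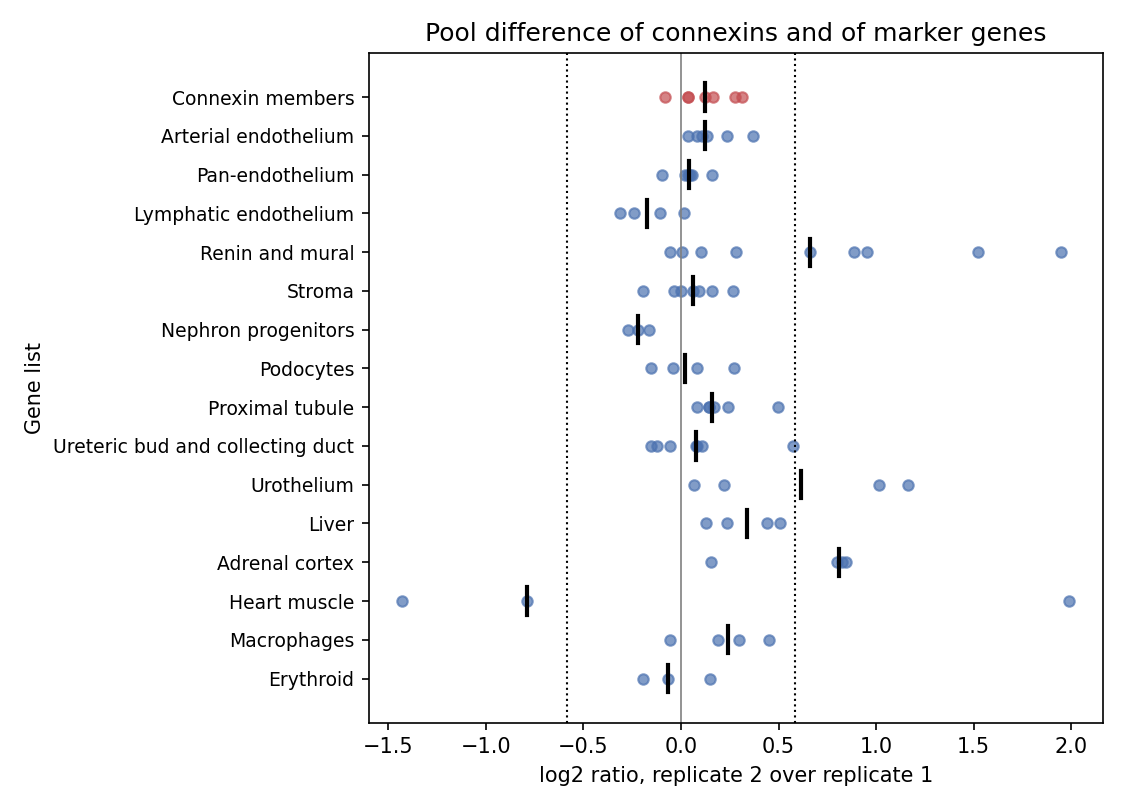
Log2 ratio of replicate 2 over replicate 1 for the 7 connexins that passed the count filter (red) and for marker genes by list (blue), with a black bar for each list's median and dotted lines at 1.5-fold. The connexins lie between -0.08 and 0.31, whereas renin and mural markers reach 1.95 and heart muscle markers run from -1.43 to 1.99.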

How the data were processed

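The data are gene and transcript tables of 2 total RNA-seq libraries, with spike-in RNAs at 2.82% and 2.08% of counts. The deposited text notes name mm10 and annotation M4. Aligner, quantifier, versions and strand setting were not given in the sources used here. The authors deposited expected counts (estimated counts that need not be whole), TPM and FPKM (scaled by length and library), posterior mean TPM with its credibility bounds (a non-negative signal), and the percent of each transcript within its gene. Between-gene values use the deposited TPM.

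Names, types and coordinates came from GENCODE M21 (42462 of 43346 identifiers matched) and promoters from RefSeq GRCm38.p6. The listed partner Nov was matched as Ccn3 by its RefSeq synonym. Expected counts were rounded, mouse genes alone entered, and pool ratios used TMM and a prior count of 2 in edgeR 4.0.16 (R 4.3.3), with exact Clopper-Pearson intervals at 95%. DESeq2 1.42.0 size factors were an alternative. Tables used Python 3.11.15, numpy 2.4.6, pandas 2.3.3 and scipy 1.17.1, and figures matplotlib 3.10.9. The ratio code was tested on simulated data.

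Named genes were all members, other connexins and pannexins at 1 TPM or more in both libraries, the 3 highest and the lowest partner, up to 3 highest markers per list and transcripts at 10% or more, with exceptions stated. Members and lists were chosen with earlier results of these data known. Alternatives covered detection, estimator, length scaling, the role of Gja5, scaling, filter, prior count, fold and each library alone. Nephron progenitors (Cited1, Eya1, Six2) and macrophages (Tyrobp, C1qa, Csf1r) had all their listed markers detected. Some genes that the rule takes are not reported here.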

Additional observations from a re-analysis of the deposited data

How the results depend on the processing

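The count of 7 detected members was the same at 0.5 and 2 TPM, by the deposited lower bound, by FPKM and in each library alone. Members with the same leading transcript were 8 by the estimate and 7 by posterior mean, counts that include 4 members with a single deposited transcript, which cannot differ; among the other 4 they were 4 and 3. Posterior mean TPM kept all 3 role ratios within 1 SD. Each library alone gave log2 0.29 to 0.50 for endothelial over epithelial, 1.07 to 1.25 for mesenchymal over endothelial and -0.12 to -0.04 for renin-cell and mural over endothelial. Without length scaling these were 0.89, 1.60 and -0.46, and with Gja5 counted as renin-cell and mural -0.52, 2.07 and 1.41, by construction of the sums. Past 1.5-fold between pools, members numbered 0 with TMM, DESeq2 size factors, library size, a prior count of 0.5, a 2-fold limit and log2(TPM + 0.1) ratios, 2 with spike-in totals (Gja3 and Gjb1) and 1 with no filter on low counts (Gjb6). Genes numbered 893 with TMM, 2724 with spike-in totals, 5739 of 25149 without the filter and 356 past 2-fold, and 899 to 951 in the rest. Pool ratios need both libraries, so none was left out there. No paired analysis was possible because there is 1 group. Depth limits Gjb6, with 19 and 38 counts.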
